A study of Sus scrofa with 12 samples.

Results

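The small heat shock proteins of loin muscle were compared between Iberian pigs with tough and tender meat. The 8 genes are *HSPB1*, *HSPB2*, *HSPB3*, *HSPB6*, *HSPB7*, *HSPB8* and *CRYAB*, which encode small heat shock proteins, and *BAG3*, which encodes their co-chaperone. They were taken by name from the 28224 genes that the annotation of Sscrofa11.1 places on chromosomes. Of these, 12966 had an assembled transcript assigned to them in at least 1 library. The 9022 genes with a mean above 0.5 FPKM (fragments of a transcript, scaled for its length and for the size of the library) were tested. All 8 passed this filter, but *HSPB3* did so through 1 library only.

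The animals were purebred, castrated male Iberian pigs of 1 line, fattened outdoors on acorns and grass, and *Longissimus dorsi* (loin) was sampled after slaughter. The labels give no age. The 6 Tough and 6 Tender animals were picked for extreme breeding values of shear force, the force needed to cut cooked meat. Shear force ranged from 7.32 to 10.63 kg/cm2 in the Tough and from 2.18 to 3.43 kg/cm2 in the Tender animals, and the breeding values ranged from 1.76 to 2.40 and from -1.09 to -0.98. There was 1 library per animal. The groups thus differ in all that goes with breeding value in this line, and which animals shared a fattening year or a sequencing lane is not stated for them, so neither could be checked.

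Small heat shock proteins share an alpha-crystallin domain, form oligomers and hold unfolded proteins without using ATP, until HSP70 and its partners refold them or pass them on for degradation. Skeletal muscle is rich in them, and several sit on the sarcomere, where desmin, filamin and titin are strained by contraction. BAG3 links HSPB8 to HSP70 and to the ubiquitin ligase STUB1, and the complex sends damaged filamin C to autophagy. HSF1 is the factor that switches on heat shock genes, through inverted repeats of the bases GAA.

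The letters of such repeats were searched before the start codon of each gene, because the members described below move together between animals. The searched letters were GAANNTTC and TTCNNGAA, each of which reads the same on both strands. In the 500 bases before the annotated start codon, at least 1 was found for *HSPB1*, *HSPB8* and *BAG3* and none for *HSPB2*, *HSPB3*, *HSPB6* and *HSPB7*. Of the 19560 protein-coding genes, 21.4% held at least 1 in this window. The window was chosen after the letters had been looked at, and in the 300 bases before the annotated gene start of these 7 genes only *HSPB1* and *HSPB8* held the letters (12.8% of 19559 windows). The stretches of 30 bases are printed 5′ to 3′ on the strand of the gene, from Sscrofa11.1, with the matching letters in capitals. The stretches of *HSPB8* and *BAG3* printed below lie within the annotated genes, after their starts. The letters found before the gene start of *HSPB8* belong to another stretch, which is not printed. A match of letters does not show that a factor binds there.
HSPB1, 237 bases before the start codon, chr3:10039660-10039689, minus strand: ctcaaacaggaGAAGGTTCcagatgtgggc
HSPB8, 371 bases before the start codon, chr14:33639569-33639598, minus strand: agaagcaaggaGAAGTTTCtaggcctgcgt
BAG3, 280 bases before the start codon, chr14:129510350-129510379, plus strand: ggatgggaccaGAAGTTTCtagccggccag

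Levels differed between the members over a wide range. Per exon base, which counts only the bases of annotated exons and divides by their length, the geometric means over the 12 libraries were 1454 FPKM for *CRYAB*, 1132 for *HSPB1*, 653 for *HSPB6*, 401 for *HSPB8*, 327 for *HSPB7*, 99.8 for *BAG3*, 7.31 for *HSPB2* and 4.54 for *HSPB3*. *CRYAB* and *HSPB1* were thus the leading small heat shock protein transcripts of the loin. Each of the 7 neighbouring pairs in this order was compared over the 12 libraries with an exact sign-flip permutation test, two-sided and not adjusted. *CRYAB* was above *HSPB1* in 10 of 12 libraries (exact permutation p = 0.00586), *HSPB1* above *HSPB6* in 9 (p = 0.0127), *HSPB6* above *HSPB8* in 10 (p = 0.00684) and *HSPB8* above *HSPB7* in 8 (p = 0.0190). *BAG3* was below *HSPB7* and above *HSPB2* in all 12 libraries (exact permutation p = 0.000488 for each, the smallest this test can give). The order depends in part on the length used, since assembled transcripts cover different shares of the annotated exons. With the FPKM of the assembled transcripts themselves, *HSPB8* was below *HSPB7* in 8 of 12 libraries (exact permutation p = 0.700), so these genes have no settled order, while the other 4 pairs among the 6 highest members had the same order (exact permutation p of 0.000488 to 0.0107). Per exon base, *HSPB2* and *HSPB3* did not differ beyond their spread (exact permutation p = 0.313), with *HSPB2* listed at 0 in 3 libraries.

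*HSPB1* encodes HSP27, an actin-binding chaperone that stress kinases phosphorylate. It lies on chromosome 3 (10038074 to 10039441, minus strand, 3 exons). The lowest, median and highest values were 496, 947 and 1796 FPKM in the Tough libraries, and 756, 1548 and 3683 FPKM in the Tender libraries. The groups overlapped, with Tender 5 and Tender 3 above every Tough library and Tough 6 below every Tender library. The group means were 1148 ± 525 FPKM in Tough and 1917 ± 1089.7 FPKM in Tender (SD, n = 6), and the log2 fold change of Tough over Tender on log2(FPKM + 0.5) was -0.68 with an SE of 0.41 (exact permutation p = 0.147, limma adjusted p = 1.00 over all genes). In all 12 libraries the assembled spliced transcript held only 75 to 95 of the 370 bases of the first exon. An unspliced transcript on the other strand, which the gene value leaves out, covered the gene in every library at 16.7 to 23.7% of the FPKM of the spliced transcript. This share was 19.0 ± 1.88% in Tough and 19.8 ± 2.44% in Tender (SD, n = 6, exact permutation p = 0.537). Counting both strands per exon base gave a log2 fold change of -0.68.

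*CRYAB* encodes alpha B-crystallin, which binds desmin and titin in the sarcomere. It lies on chromosome 9 (39638505 to 39643530, minus strand) and overlaps *HSPB2*, which lies on the other strand. The lowest, median and highest values were 504, 1129 and 2161 FPKM in Tough and 1178, 1793 and 3462 FPKM in Tender. As for *HSPB1*, Tender 5 and Tender 3 were above every Tough library, while 3 Tough libraries were below every Tender library. The means were 1322 ± 646 and 2114 ± 998 FPKM (SD, n = 6), a log2 fold change of -0.71 with an SE of 0.39 (exact permutation p = 0.134, limma adjusted p = 1.00).

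*HSPB8* and *BAG3* encode the pair that hands filamin C to selective autophagy, both on chromosome 14 (33626125 to 33639824, minus strand, and 129510240 to 129533998, plus strand). *HSPB8* had 243, 344 and 625 FPKM as its lowest, median and highest Tough values and 341, 441 and 706 FPKM in Tender. *BAG3* had 57.6, 80.1 and 152 FPKM in Tough and 93.2, 129 and 186 FPKM in Tender. For *BAG3*, 4 of 6 Tough libraries were below every Tender library, whereas Tough 2 and Tough 3, at 152 and 149 FPKM, stood with the highest Tender libraries. The means of *HSPB8* were 372 ± 139 FPKM in Tough and 490.5 ± 142 FPKM in Tender, a log2 fold change of -0.43 with an SE of 0.25 (exact permutation p = 0.134). The means of *BAG3* were 97.1 ± 42.4 and 129 ± 33.3 FPKM (SD, n = 6), a log2 fold change of -0.48 with an SE of 0.27 (exact permutation p = 0.128, limma adjusted p = 1.00 for both genes). Per exon base, *BAG3* was at -0.53 (exact permutation p = 0.0693, limma p = 0.0476, adjusted p = 1.00).

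*HSPB6* encodes HSP20, which is best known for promoting the relaxation of smooth muscle and protecting the heart, and *HSPB7* encodes the cardiovascular heat shock protein, a partner of filamin C. Both lie on chromosome 6 on the minus strand (45181439 to 45184011 and 75171507 to 75174918). *HSPB6* had 325, 638 and 1124 FPKM as its lowest, median and highest Tough values and 572, 923 and 1857 FPKM in Tender. Its highest Tough library was Tough 4, one of the lowest for *BAG3*, and Tough 2 and Tough 3, which led the Tough group for *HSPB1*, *CRYAB* and *BAG3*, were next to the lowest. The means of *HSPB6* were 683 ± 309 and 1025 ± 491 FPKM (SD, n = 6), a log2 fold change of -0.59 with an SE of 0.36 (exact permutation p = 0.160, limma adjusted p = 1.00). Per exon base the log2 fold change was -0.27 (exact permutation p = 0.517). The transcripts of Tender 1 to Tender 4 had 62.1 to 81.2% of their bases in the annotated exons, and those of the other libraries 87.3 to 100%. *HSPB7* had 137, 360.4 and 398 FPKM in Tough and 312, 368 and 740.5 FPKM in Tender. All *HSPB7* values but those of Tough 6, Tender 3 and Tender 5 lay between 307 and 398 FPKM, so the medians of the groups were close. Its log2 fold change was -0.47 with an SE of 0.30 (exact permutation p = 0.206, limma adjusted p = 1.00), and -0.24 without Tough 6.

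*HSPB2* and *HSPB3* encode 2 small heat shock proteins that assemble with each other in muscle. *HSPB2*, on chromosome 9 (39640117 to 39644104, plus strand), was listed at 0 in Tough 1, Tough 5 and Tough 6. The other Tough libraries had 22.9, 22.2 and 20.9 FPKM, and the 6 Tender libraries ranged from 15.9 to 29.9 FPKM with a median of 20.3 FPKM. Among the libraries with a transcript the groups did not stand apart (Tough above Tender by 0.06 on the log2 scale, exact permutation p = 0.881 for 3 against 6). The log2 fold change of -2.69 over all libraries (SE 1.12, exact permutation p = 0.104, limma p = 0.0331, adjusted p = 1.00) therefore rests on the 3 libraries at 0. A 0 here can be a failed assembly, since *GAPDH*, which every cell uses, is itself listed at 0 in 7 of the 12 libraries. In Tough 6 the transcript assigned to *CRYAB* held an exon at 39642799 to 39642978, inside an annotated exon of *HSPB2*. Whether that stretch belongs to *HSPB2* was not tested. Spliced transcripts with 2 different first exons were present together in 6 libraries. In all 6 the form that starts in a first exon absent from the annotation of *HSPB2* was the higher one, by 1.66 to 8.30 times. In Tender 3 only the form with the annotated exon was assembled, at 65.9 FPKM. The exon absent from the annotation starts at 39643119 to 39643178 and ends at 39643250. It lies between the annotated exon that ends at 39642978 and the last exon, which starts at 39643440. In the 6 libraries the transcripts with it had 164 to 179 bases in annotated exons of *CRYAB* on the other strand. Those with the annotated exon had 91. The alternative exon thus overlaps *CRYAB*, a far higher gene, and whether it belongs to *HSPB2* was not tested.

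*HSPB3*, a gene of 1 exon on chromosome 16 (33716458 to 33717402, plus strand), was assembled in every library, but in 11 of them as part of a transcript of 4763 to 6876 bases of which only 13.7 to 19.8% lay in the gene. The rule of the gene value therefore lists it at 0 in all libraries but Tough 4. Per exon base its lowest, median and highest values were 2.18, 4.43 and 11.6 FPKM in Tough and 4.12, 4.36 and 5.17 FPKM in Tender. The Tender libraries were close together, and 3 Tough libraries were below and 3 above all of them. The log2 fold change per exon base was 0.03 with an SE of 0.28 (exact permutation p = 0.924).

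**Figure D1:**
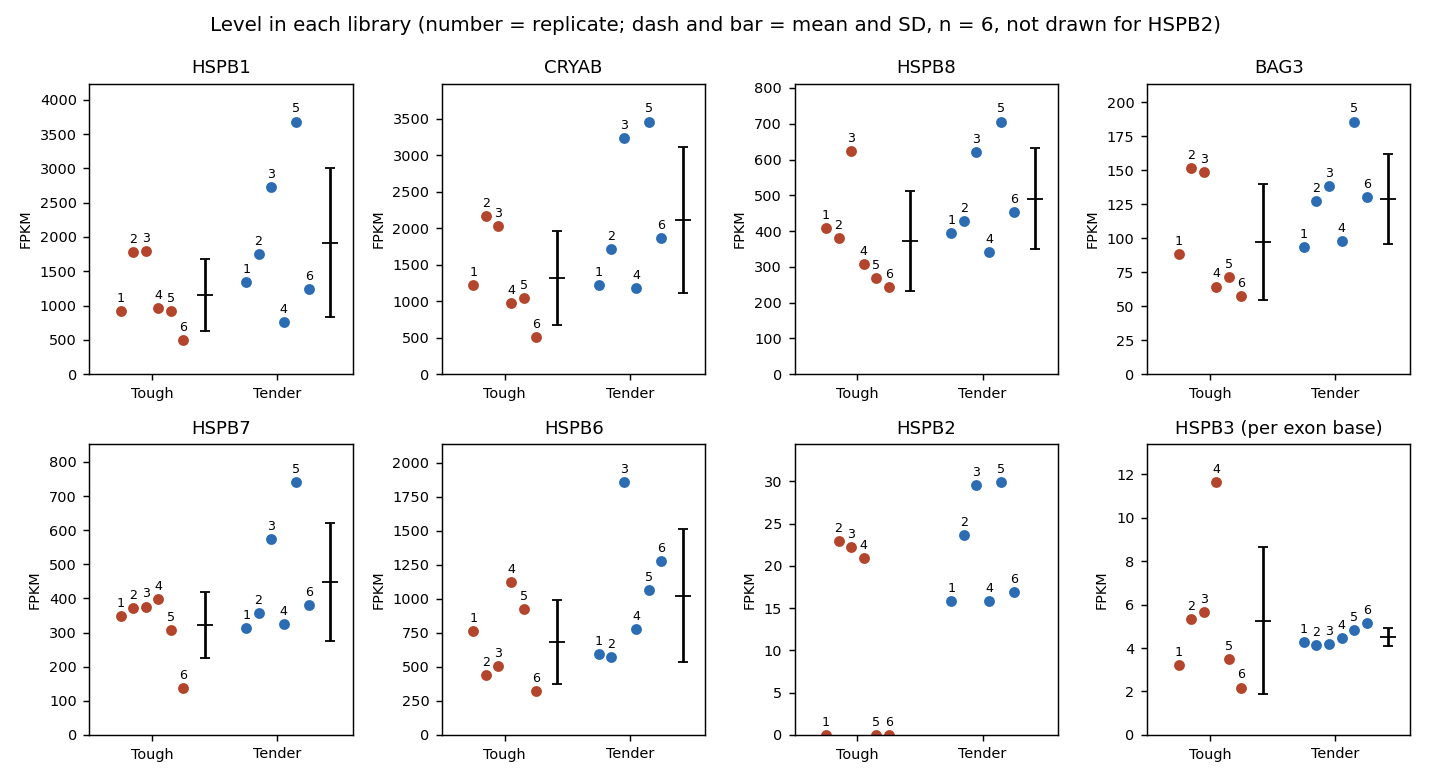
FPKM of each of the 8 genes (vertical axis, linear from 0) in the 6 Tough and 6 Tender libraries, with numbers for replicates and a dash and bar for the mean and SD. Tender 3 and Tender 5 are the 2 highest libraries for HSPB1, CRYAB and HSPB7, Tough 6 is the lowest for all but HSPB2, which is listed at 0 there and in Tough 1 and Tough 5, and HSPB3 per exon base is highest in Tough 4.

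No member passed the test between the groups. Calling a gene required a fold change of 1.5, a limma p no higher than 0.05 and, after adjustment, no higher than 0.10. By this rule 0 of 8 members and 0 of the 9022 genes tested were called (0% of genes), and an exact Wilcoxon test called 0 as well. At an unadjusted p of at most 0.05, limma gave 223 genes (2.47% of those tested, 64 of them higher in Tough) and the exact Wilcoxon test 192. Of the members, 1 of 8 was below this p with limma, *HSPB2*, and 0 with the Wilcoxon test. On simulated data of 9022 genes the same limma test recovered 76% of genes given a log2 change of 1, and 93% where the change was 2. The changed genes were drawn from all genes tested, with separate noise for each gene. The median SD within groups on the log2 scale was 0.34 over all genes, against 0.45 to 0.76 for 6 members. These shares therefore do not give the recovery for the members. Of the 8 members 7 had a negative log2 fold change, that is a higher level in Tender, against 60.3% of all genes tested. The median log2 fold change was -0.53 for the members and -0.04 for all genes. The count of members in this direction cannot be read as 7 separate observations, because the members vary together as described below. With median-of-ratios scaling the median of all genes became 0.00, and 143 of 283 genes with an unadjusted p of at most 0.05 were higher in Tough (144 of 291 with quantile normalization), while the same 7 members had negative values between -2.65 and -0.37. With quantile normalization they were negative too but smaller, at -0.23 for *HSPB8*, -0.29 for *HSPB7*, -0.35 for *BAG3*, -0.43 for *CRYAB*, -0.46 for *HSPB6* and -0.50 for *HSPB1*.

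An exact permutation test of the difference in mean log2(FPKM + 0.5), over the 924 ways to form 2 groups of 6 animals, gave two-sided p-values of 0.147 for *HSPB1*, 0.134 for *CRYAB*, 0.134 for *HSPB8*, 0.128 for *BAG3*, 0.160 for *HSPB6*, 0.206 for *HSPB7* and 0.104 for *HSPB2*. For none of the 8 members was every Tender library above every Tough library, which held for 7 genes tested (0.0776%). Tough 6 was the lowest library for the 6 members with a transcript in every library and had the greatest relative depth, judged by the coverage per FPKM, which ranged from 6.54 to 10.2 over the libraries. Without Tough 6 the log2 fold changes were -0.46 for *HSPB1* and *CRYAB*, -0.32 for *HSPB8*, -0.35 for *BAG3* and -0.40 for *HSPB6*. Without Tender 5 they were -0.45 for *HSPB1*, -0.54 for *CRYAB*, -0.31 for *HSPB8* and *HSPB7* and -0.36 for *BAG3*, and without Tender 3 that of *HSPB6* was -0.39. The part of depth in this was not tested.

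**Figure D2:**
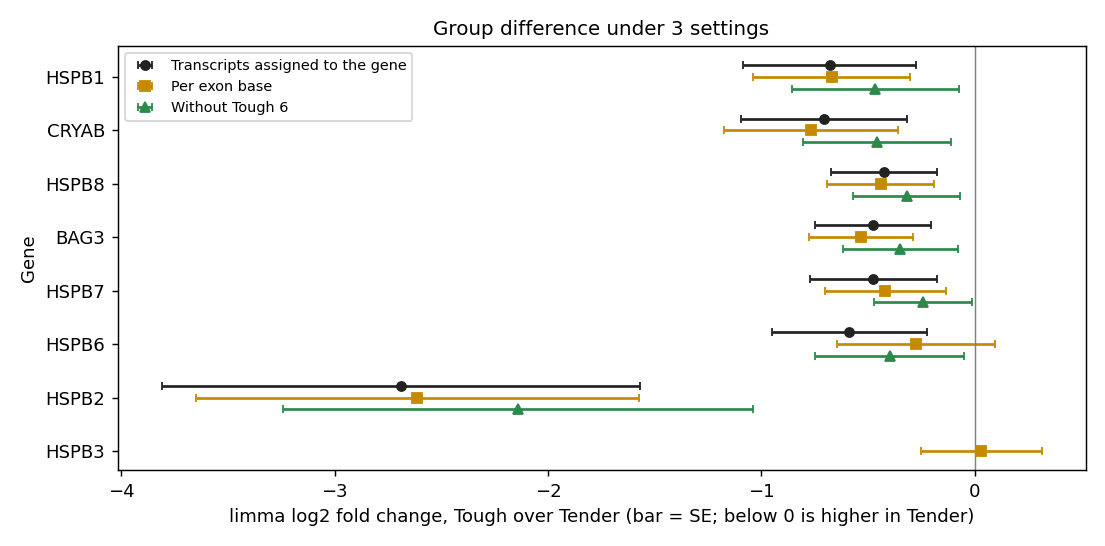
Log2 fold change of Tough over Tender (horizontal axis, limma, bars show the SE) for each gene under 3 settings (assigned transcripts, per exon base, without Tough 6), with HSPB3 shown per exon base only. Values for 6 genes lie between -0.77 and -0.24 under all 3 settings, HSPB2 lies below -2 because of 3 libraries at 0, and HSPB3 lies near 0.

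The spread between animals of 1 group was large for the members. The SD within groups on the log2 scale was 0.76 for *HSPB1*, 0.72 for *CRYAB*, 0.68 for *HSPB6*, 0.54 for *HSPB7*, 0.50 for *BAG3* and 0.45 for *HSPB8*, against a median of 0.34 over all genes tested. It exceeded that of 88.3% of genes for *HSPB1* and of 71.7% for *HSPB8*. *HSPB1* varied 7.42-fold from its lowest to its highest library, and *HSPB8* 2.91-fold.

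This spread was largely shared. After removal of the group means, the 10 pairs among *HSPB1*, *CRYAB*, *HSPB8*, *BAG3* and *HSPB7* had a Pearson r of 0.67 to 0.94 and a Spearman rho of 0.60 to 0.94 over the 12 libraries. The closest pair was *HSPB1* and *CRYAB* (r = 0.94, rho = 0.83), followed by *CRYAB* and *BAG3* (r = 0.92, rho = 0.94). All 10 were positive within each group, with r of 0.56 to 0.98 in Tough and 0.85 to 0.98 in Tender, so neither group alone carried them. Without the 2 libraries farthest from the median of the first gene of each pair, r ranged from 0.47 to 0.95. For comparison, 0.577% of 6588 genes with a symbol, a transcript in all libraries and a mean of at least 1 FPKM had an r above 0.8 with *HSPB1*, and 1.11% with *CRYAB*. All 5 genes were below their group mean in Tough 6, Tender 1 and Tender 4, and all 5 were above it in Tough 2, Tough 3, Tender 3 and Tender 5. These correlations are descriptions, since the points share the FPKM scale of their library. With median-of-ratios scaling the 10 pairs had an r of 0.63 to 0.94, per exon base of 0.70 to 0.93, and without Tough 6 of 0.56 to 0.92.

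*HSPB6* followed the other members less closely. Its r with *HSPB1*, *CRYAB*, *HSPB8* and *BAG3* was 0.26, 0.37, 0.25 and 0.01 (rho of 0.14, 0.22, 0.27 and 0.10), and only its r with *HSPB7* was larger, at 0.63 (rho = 0.63). Within Tender its r with the same 4 genes was 0.43, 0.73, 0.65 and 0.52, and within Tough 0.06, 0.07, -0.07 and -0.28. These values, from 6 animals each, were thus lower within Tough. Tender 3 and Tough 6 were the 2 libraries farthest from the median of *HSPB6*. Without them its r was -0.03 with *CRYAB*, -0.07 with *HSPB8*, -0.30 with *BAG3* and 0.42 with *HSPB7*. Tough 2, where *HSPB1*, *CRYAB* and *BAG3* were 0.75 to 0.87 above the Tough mean on the log2 scale, had *HSPB6* 0.49 below it. In Tough 4 the order was opposite, with *HSPB6* 0.85 above the mean and *BAG3* 0.48 below it. In Tough 6, Tender 1 and Tender 4 all 6 genes were low together, and in Tender 3 and Tender 5 all 6 were high. The difference between the correlations of *HSPB6* and of the other genes was not tested.

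**Figure D3:**
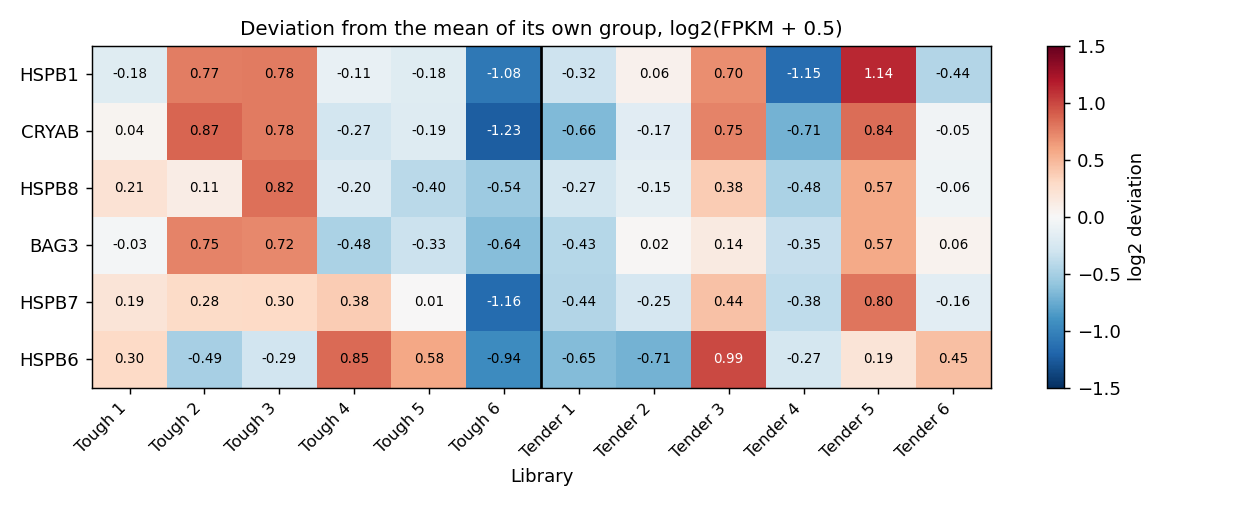
Deviation of each gene from the mean of its own group (log2 scale, colour and number) in the 12 libraries (horizontal axis), for the 6 genes with a transcript in every library. HSPB1, CRYAB, HSPB8, BAG3 and HSPB7 are high together in Tough 2, Tough 3, Tender 3 and Tender 5 and low together in Tough 6, Tender 1 and Tender 4, while HSPB6 is low in Tough 2 and Tough 3 and high in Tough 4.

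The genes with the most similar pattern were other chaperone genes for part of the members. For *BAG3* the 3 highest r were those of *CCT5* (0.98), *CCT3* (0.96) and *CCT4* (0.96), which encode subunits of the cytosolic chaperonin that folds actin and tubulin. For *CRYAB* they were *CCT3* (0.97), *STIP1* (0.95), which encodes the co-chaperone that joins HSP70 to HSP90, and *HSPB1* (0.94). For *HSPB1* they were *STIP1* (0.95), *GARS* (0.94), a glycyl-tRNA synthetase gene, and *CRYAB* (0.94). For *HSPB8* they were *RNPS1* (0.92), *CCT3* (0.91) and *PLPP1* (0.90), and for *HSPB7* *VPS72* (0.95), *MSTO1* (0.92) and *PSME3* (0.91). *HSPB6* had *FADS3* (0.92), *RAB13* (0.92) and *BLVRB* (0.92), none of which is a chaperone gene. Some of these depend on the measure, as the r of *CCT4* with *BAG3* was 0.64 per exon base and that of *GARS* with *HSPB1* 0.74 with median-of-ratios scaling.

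The chaperones that work with small heat shock proteins were counted from lists of genes. Beside the counts of lists here and below, 60.3% of all 9022 genes tested were higher in Tender. An unadjusted limma p of at most 0.05 was reached by 2.47% of all genes tested. Of the HSP70 system (HSP70 proteins and their DNAJ partners) 14 genes were tested, and 11 of these were lower in Tough (median log2 fold change -0.17). The only one whose unadjusted limma p reached 0.05 was *DNAJB6*, a co-chaperone of the sarcomeric Z disc, with 28.9 ± 2.57 FPKM in Tough and 38.7 ± 7.52 FPKM in Tender (SD, n = 6, log2 fold change -0.40, SE 0.14, limma adjusted p = 1.00). Of 9 genes of the list of HSP90, its co-chaperones and mitochondrial chaperonins, 6 were higher in Tender (median -0.34). *HSP90AB1*, the constitutive cytosolic HSP90, was the only one with an unadjusted p of at most 0.05, at 90.8 ± 36.3 and 128 ± 27.2 FPKM (SD, n = 6, log2 fold change -0.56, SE 0.25, limma adjusted p = 1.00). None of these genes was called, and the smallest adjusted p of all genes was 0.652.

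Of the partners of HSPB8 and BAG3 in selective autophagy, all 9 genes tested had a negative log2 fold change (median -0.30). *WIPI1*, which acts in the formation of autophagosomes, had 19.1 ± 8.70 FPKM in Tough and 29.7 ± 8.73 FPKM in Tender (SD, n = 6, log2 fold change -0.68, SE 0.28, limma adjusted p = 1.00), and the unadjusted p of the other 8 was above 0.05. Their client *FLNC*, filamin C, had 376 ± 174 and 450.1 ± 140.3 FPKM (SD, n = 6, log2 fold change -0.34, SE 0.32). Of the other BAG proteins, *BAG2*, an inhibitor of STUB1, had a log2 fold change of -0.57 (SE 0.27), *BAG6* of -0.17 and *BAG1* of -0.11, none with an unadjusted p under 0.05. Of the 8 sarcomere and filament proteins that small heat shock proteins bind, 5 were higher in Tender (median -0.15) and 0 had a p of at most 0.05, the smallest being *MYOT*, myotilin of the Z disc, at -0.33 (SE 0.22). *HSF1* had 24.2 ± 3.17 FPKM in Tough (SD, n = 6) and 0 to 32.6 FPKM in Tender, where 1 library is listed at 0, and *HSF2* had a log2 fold change of -0.23 (SE 0.20). *HSBP1*, which encodes an inhibitor of HSF1, had a value above 0 in 1 library only. Of the list named other small heat shock proteins, *HSPB11*, whose protein acts in cilia, had 0.668 ± 0.222 and 0.636 ± 0.263 FPKM (SD, n = 6). *HSPB9*, *CRYAA* and *ODF1* were listed at 0 in every library.

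The summed FPKM of each list was compared with the members over the 12 libraries, after removal of the group means. That of the HSP70 system followed *BAG3* with r = 0.92, *CRYAB* with 0.85, *HSPB8* with 0.77, *HSPB1* with 0.75 and *HSPB7* with 0.57, but *HSPB6* with -0.01. *HSPA8* made up most of this sum (means of 390 FPKM in Tough and 511 FPKM in Tender) and had r = 0.87 with *BAG3*. *DNAJA1* (-0.46), *HSPA1L* (-0.24) and *HSPA2* (-0.03) had a negative r with *BAG3*, and the other tested genes of the list a positive one. In the order *BAG3*, *CRYAB*, *HSPB8*, *HSPB1*, *HSPB7* and *HSPB6*, the sum of HSP90 and chaperonins gave 0.89, 0.83, 0.82, 0.74, 0.50 and 0.04. The selective autophagy partners, which include *HSPA8* of the HSP70 list, gave 0.89, 0.83, 0.73, 0.85, 0.53 and -0.12. In the first sum *FKBP4* and *UNC45B* are listed at 0 in 3 libraries each, *HSPE1* in 2 and *HSPD1* in 1, and in the second *STUB1* in 4. The r of these genes with *BAG3* was 0.41, 0.05, -0.05, 0.49 and 0.33. *SYNPO2* gave 0.13 and *STX17* 0.28 with *BAG3*, and the other tested genes of these lists 0.47 to 0.91. In the order of genes given above, the sum of the other BAG proteins gave 0.48, 0.51, 0.35, 0.53, 0.41 and 0.09. That of the sarcomere and filament proteins, in which *DES* and *ACTN2* are each listed at 0 in 5 libraries, gave 0.56, 0.53, 0.39, 0.39, 0.38 and 0.02. *HSPB11*, the only gene with a value in the list of other small heat shock proteins, gave 0.21, 0.11, 0.31, 0.01, 0.27 and 0.00. The summed heat shock factors followed none of the 6 genes closely (r of 0.01 to 0.25, of 0.24 to 0.46 per exon base and of 0.16 to 0.47 without Tough 6). This sum includes *HSF1*, listed at 0 in 1 library, and *HSBP1*, listed at 0 in 11. *HSF2*, which had a value in every library, gave r = 0.73 with *BAG3*, 0.49 with *CRYAB* and 0.46 with *HSPB8*. Its r was 0.38 with *HSPB1*, 0.24 with *HSPB7* and -0.31 with *HSPB6*. The sum therefore does not stand for each factor.

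*HSPB6* instead moved with most markers of slow muscle fibres. The summed FPKM of 10 slow fibre genes had an r of 0.87 with *HSPB6* (rho = 0.89), 0.61 with *HSPB7*, 0.42 with *CRYAB*, 0.26 with *HSPB8*, 0.21 with *HSPB1* and 0.16 with *BAG3*. Of the 10 genes, 8 had an r of 0.66 to 0.86 with *HSPB6*. The others, named after their values were seen, were *MYH7*, the slow myosin heavy chain (r = 0.08 with *HSPB6* and 0.50 with *BAG3*), and *ATP2A2*, the slow calcium pump (r = 0.00). For the sum, the r with *HSPB6* was 0.83 without Tough 6, 0.93 with median-of-ratios scaling and 0.84 per exon base. The same sum ranged from 4601 to 9998 FPKM in Tough and from 7330 to 12806 FPKM in Tender (exact permutation p = 0.0433). All 10 slow fibre genes had negative log2 fold changes (median -0.43). The 3 whose unadjusted limma p reached 0.05 were *CASQ2*, *MYOZ2* and *MYL2*. The markers of red blood cells also followed *HSPB6* (r = 0.84, and 0.65 per exon base) and *HSPB7* (0.72). Their sum was 124 to 207 FPKM in Tough and 239 to 353 FPKM in Tender (exact permutation p = 0.00216, the smallest this test can give). It was nearly all *HBB*, with means of 164 FPKM in Tough and 294 FPKM in Tender, and *SLC4A1* was at 0 in every library. The p-values of the slow fibre and red blood cell sums are not adjusted and were the smallest of all list sums. The other sums had an exact permutation p of 0.0758 to 0.981. In bulk muscle fewer cells or fibres of a kind and less RNA per cell cannot be told apart, and the part of fibre type and blood content in the difference of the members was not tested. The summed fast fibre markers ranged from 25273 to 40404 FPKM in Tough and from 14961 to 37481 FPKM in Tender. Their r with the 6 genes was -0.21 to 0.18. In this sum *MYH1*, *MYH2* and *MYH4* are listed at 0 in every library, *TNNC2* in 2 libraries, and *TNNI2* and *CASQ1* in 4 each. A 0 can be a failed assembly, and its part in this sum and its r was not tested. The sums for smooth muscle and pericytes (59.7 to 109 FPKM in Tough, 57.3 to 80.8 FPKM in Tender), endothelium (19.9 to 42.6 and 31.2 to 49.1), adipocytes (28.1 to 57.8 and 32.0 to 98.5) and macrophages (12.9 to 46.1 and 17.1 to 87.2) overlapped between the groups. The endothelium sum had an r of 0.61 with *HSPB6* (rho = 0.64), 0.73 with median-of-ratios scaling and 0.43 without Tough 6, and of 0.42 with *HSPB7*. *RGS5*, *CLDN5*, *ADIPOQ* and *MARCO* are at 0 in every library.

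**Figure D4:**
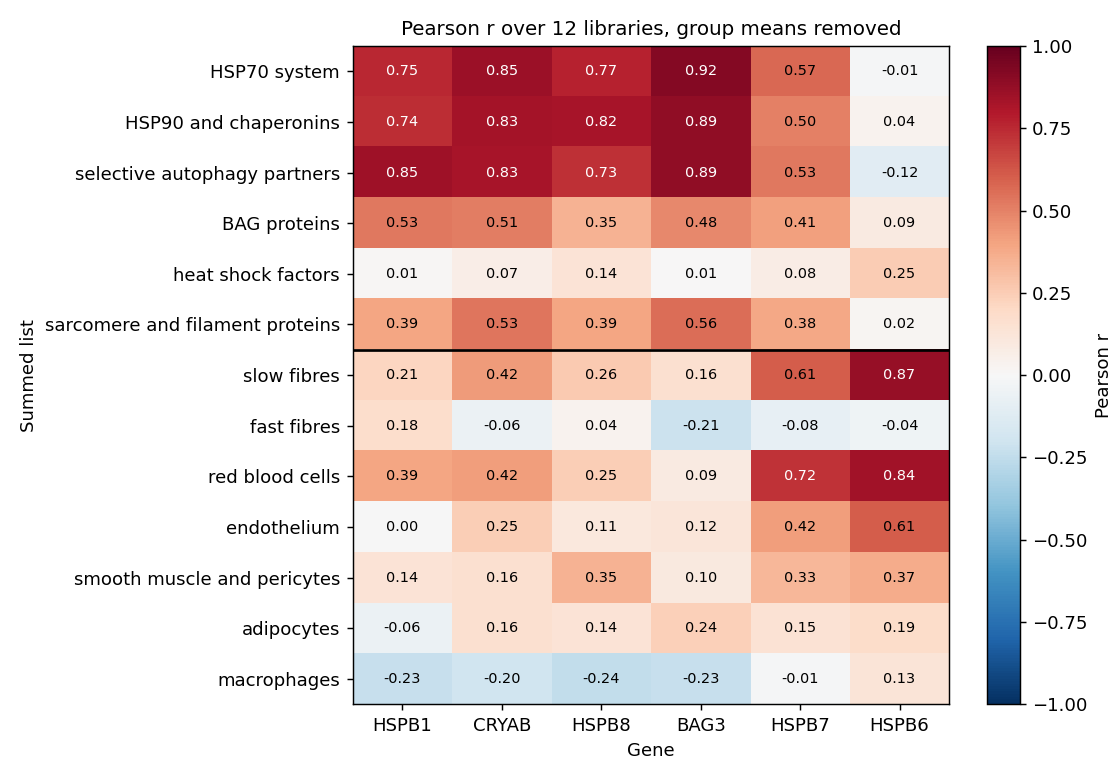
Pearson r over 12 libraries, with group means removed, between each gene (columns) and the summed FPKM of each list (rows, chaperone lists above the line and cell or fibre markers below it). The sums of the HSP70 system, of HSP90 and chaperonins and of the autophagy partners reach 0.73 to 0.92 with HSPB1, CRYAB, HSPB8 and BAG3 and lie between -0.12 and 0.04 for HSPB6, whose highest values are 0.87 with slow fibres and 0.84 with red blood cells.

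Within the groups the members were compared with the shear force of the same animal, over 15 relations of 6 animals each. In Tough, Pearson r ranged from 0.21 for *BAG3* to 0.78 for *HSPB7*, and in Tender from -0.02 for *BAG3* to 0.68 for *HSPB6*. The largest was that of *HSPB7* in Tough (r = 0.78, exact permutation p = 0.05, rho = 0.60, exact permutation p = 0.242, n = 6). After Benjamini-Hochberg adjustment over the 15 relations the smallest permutation p was 0.708 for r and 0.860 for rho, so no relation passed. Of the r values 7 of 7 in Tough and 7 of 8 in Tender were positive. Without the 2 animals farthest from the median shear force, r lay between -0.50 and -0.13 in Tender and between -0.20 and 0.96 in Tough.

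**Figure D5:**
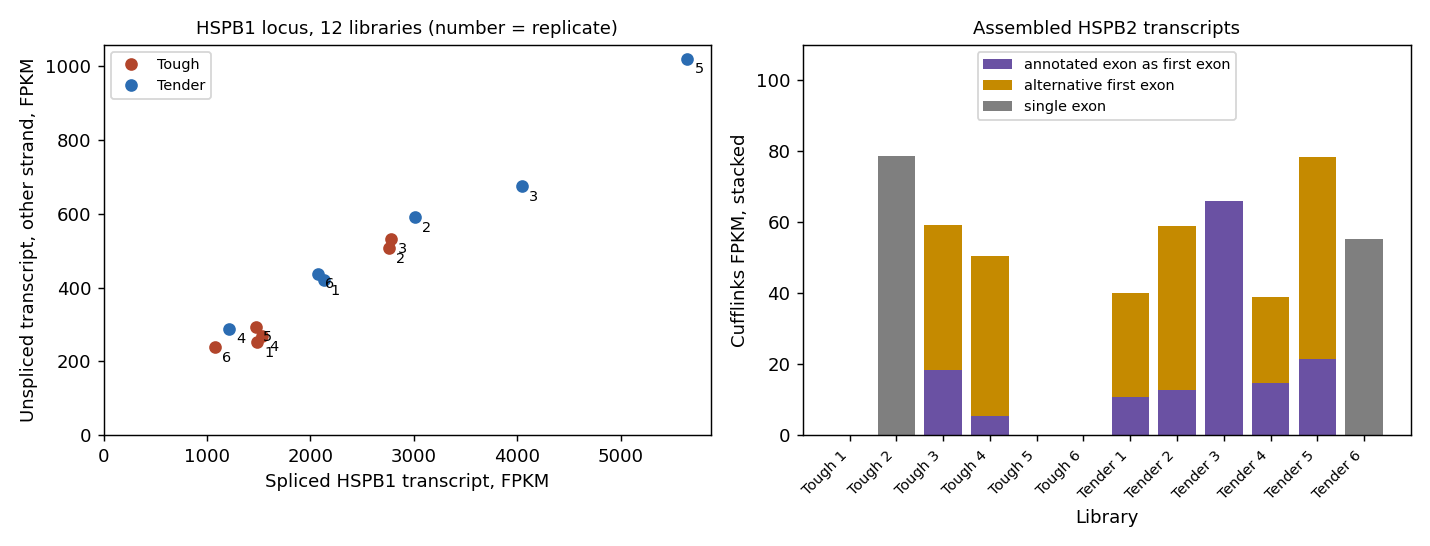
Left, FPKM of the unspliced transcript on the other strand of HSPB1 (vertical axis) against the spliced HSPB1 transcript (horizontal axis) in 12 libraries. Right, stacked Cufflinks FPKM of the assembled HSPB2 transcripts by first exon. The unspliced transcript keeps to 16.7 to 23.7% of the spliced one, and HSPB2 has no transcript in Tough 1, Tough 5 and Tough 6.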

How the data were processed

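RNA of *Longissimus dorsi* from 12 pigs was analysed, 6 Tough and 6 Tender, with groups and shear force from the sample labels. Per the labels and the methods of the study, the authors checked reads with FastQC, used Trim Galore for trimming and TopHat2 2.1.0 for mapping to Sscrofa11.1 and ran Cufflinks 2.2.1 separately on every library. The deposited files give the exons of each transcript, its FPKM as the authors computed it, and an isoform score that the authors deposited and that was not used. They hold no read counts, so depth is known only relatively, from coverage per FPKM.

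Each transcript went to the same-strand gene that held at least 50% of its exonic bases in the NCBI annotation of Sscrofa11.1, and gene FPKM is FPKM times length, summed over transcripts and divided by the gene's exonic bases. From 63.2 to 73.8% of transcripts per library were assigned. Per exon base, each transcript counts by its bases in the gene, with no minimum share. The limma test (version 3.58.1, R 4.3.3, eBayes with a trend) used log2(FPKM + 0.5) of the genes whose mean exceeded 0.5 FPKM, with Benjamini-Hochberg adjustment and the thresholds of the study. A fold change on this scale understates the change of low genes. Single values were tested with exact permutation tests, two-sided, in Python 3.11.15 with scipy 1.17.1. The test was tried on simulated data, with 15 false calls among 9022 genes.

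The members, lists and windows were chosen with earlier results of these data known. *HSPA1A* and *HSPA1B* are both names of *HSP70.2* in the annotation and were counted once. *HSP90AA1* and *BAG5* lie on scaffolds, which were left out, and *HSF4* could not be matched by name. Named genes are the members, list genes with an unadjusted p of at most 0.05 or else up to 3 of smallest p, up to 3 genes of a marker list named beside a result, and the 3 genes of highest r with each member. Genes listed at 0 in every library are named beside their list. Alternatives covered the pseudocount, the filter, scaling, the way gene FPKM is made, limma options, an exact Wilcoxon test, a replicate block and leaving out each library. RNA quality beyond the study's own check and Tender 7 were not analysed here. An item of the search for promoter letters is not reported here.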

Additional observations from a re-analysis of the deposited data

Results flagged for a closer look

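In groups of 6 libraries, a value was marked where its gap to the nearest library was too large a part of the range of its group (Dixon's test at 95%), which chance marks in about 1 in 20 groups. *HSPB7* was low in Tough 6, at 137 FPKM against 307 FPKM in the nearest Tough library, a gap of 0.652 of the range. *HSPB3* per exon base was high in Tough 4, at 11.6 FPKM against 5.66 FPKM in the nearest Tough library, a gap of 0.632 of the range. Tough 4 is also the only library in which the assembled *HSPB3* transcript lies mostly within the gene, and whether the value there reflects the assembly was not tested.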

How the results depend on the processing

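Under the 28 alternatives to the main test, 0 genes and 0 members were called. The number of genes with an unadjusted p of at most 0.05 changed from 223 to 348 with no filter, 377 with the plain sum of FPKM, 338 with the highest transcript and 637 with array weights, and ranged from 151 to 400 with each library left out (400 without Tender 4, 383 without Tender 1 and 377 without Tough 1). The number of members with such a p changed from 1 to 2 when 90% of bases had to lie in the gene, 2 per exon base, 6 with array weights and 0 with the exact Wilcoxon test, and ranged from 0 to 3 with each library left out. It was 0 without Tough 1, Tough 5, Tough 6, Tender 2, Tender 3 or Tender 5, 2 without Tender 4 and 3 without Tough 2 or Tough 3. With the 90% rule *HSPB6* moved to a log2 fold change of 4.89 (exact permutation p = 0.232), *HSPB7* to 7.70 (exact permutation p = 0.00649) and the exact permutation p of *BAG3* to 0.00216, because this rule puts libraries whose transcripts run past the gene at 0. The exact permutation p of *HSPB2* was 0.881 over the libraries with a transcript, with the sign reversed, and that of *HSPB8* ranged from 0.0303 (without Tough 3) to 0.260 with each library left out. With each library left out, the reversed medians of lists ranged from -0.11 to 0.90 for heat shock factors. They ranged from -0.028 to 0.14 for the list in which only *HSPB11* was tested.

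Without the 2 animals farthest from the median, the correlation with shear force turned in Tough for *HSPB1* (-0.070), *HSPB8* (-0.082), *CRYAB* (-0.15) and *BAG3* (-0.20), and in Tender for *HSPB1* (-0.13), *HSPB2* (-0.47), *HSPB3* (-0.32), *HSPB6* (-0.48), *HSPB7* (-0.50), *HSPB8* (-0.28) and *CRYAB* (-0.42). With the FPKM of the assembled transcripts, an alternative added after seeing the data, the mean log2 ratio of *HSPB8* to *HSPB7* turned from 0.29 to -0.053. The cause was not tested for any of these except the 90% rule. Replicate numbers do not pair the animals (correlations of same-numbered deviations from -0.22 to 0.02, no library closest to its own number). With the replicate number as a block, 171 genes had an unadjusted p of at most 0.05, 0 were called, and *HSPB2* was the only member among them. With 6 animals a group and a log2 SE of 0.25 to 0.41 for 6 members, their differences in the main test exceeded the SE but did not pass. This did not hold under every alternative, as *HSPB6* per exon base was at -0.27 with an SE of 0.37.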
